A study of Schizosaccharomyces pombe with 8 samples.

Results

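The genes described here encode proteins that carry out DNA strand exchange during meiotic recombination in the fission yeast *Schizosaccharomyces pombe*: dmc1, meu13, mcp7, swi5 and sfr1. They were chosen by name, and these 5 were found among the 5113 protein-coding genes of the RefSeq ASM294v3 annotation. They lie on chromosome I at 3382264 to 3383404 (dmc1, SPAC8E11.03C, + strand), 977709 to 978637 (meu13, SPAC222.15, + strand) and 578450 to 579948 (mcp7, SPAC13A11.03, + strand), and on chromosome II at 1137907 to 1139030 (swi5, SPBC409.03, + strand) and 1580456 to 1581880 (sfr1, SPBC28F2.07, + strand). An array probe was counted as a gene's own where it overlapped the gene or the 500 bp on either side, which gave 42 probes for the 5 genes, of which 38 were used and 4 were left out because the scanner software had marked them as outlier spots. The study immunoprecipitated chromatin (ChIP) with an antibody against histone H3 trimethylated at lysine 4 (H3K4Me3) or against histone H3, and hybridised the recovered DNA beside its input DNA on tiling arrays. All cells were of strain PN2159, a diploid carrying the temperature-sensitive pat1-114 allele on both copies of the gene, which enters meiosis synchronously at 34 °C. In the +N condition cells stayed in nitrogen-rich medium, were held in G1 by M-factor, a mating pheromone, until the shift and were taken 30 min later. In the −N condition they were starved of nitrogen, given nitrogen again, shifted and taken 2 h after the shift. The paper places both samplings at the start of premeiotic S phase. Each of the 4 groups, H3K4Me3 +N, H3K4Me3 −N, H3 +N and H3 −N, had 2 arrays. Pheromone, nitrogen history and time after the shift differ together between +N and −N and cannot be told apart, and meiosis was driven by loss of Pat1 kinase function rather than by mating.

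Strand exchange is the step in which a broken chromosome finds an intact homologous DNA and invades it. Dmc1, a recombinase of the RecA family that is specific to meiosis, coats the resected end. Meu13 and Mcp7, the fission yeast Hop2 and Mnd1, form a complex that helps Dmc1-dependent strand invasion, and Swi5 and Sfr1 form another that assists the recombinase. H3K4Me3 is deposited by the Set1 methyltransferase complex around the 5′ ends of transcribed genes, and the H3 signal reports nucleosome occupancy.

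The DNA just upstream of the genes is shown first, because the H3K4Me3 results turn on the 5′ end and because binding sites for regulators of premeiotic and meiotic transcription can be read there. The letters searched were ACGCGT, the MluI cell cycle box recognised by the MBF factor that drives G1/S genes, and GTAAACA or GTAAATA, the sequence recognised by the meiotic forkhead factor Mei4, on both strands of the 250 bp before each annotated 5′ end. ACGCGT was present upstream of 2 of the 5 genes (dmc1 and meu13), against 2.64% of 5112 upstream stretches of the same length in the genome. A Mei4 sequence was present upstream of the same 2 genes, against 26.7% of all stretches, and in meu13 it overlaps the second ACGCGT. Neither was found upstream of mcp7, swi5 or sfr1. The stretches below are RefSeq ASM294v3 sequence, written 5′ to 3′ on the gene's own strand, with the matches in capitals. They are chrI:3382014-3382263 (+ strand) for dmc1 and only the matched letters, chrI:977615-977641 (+ strand), for meu13.
dmc1: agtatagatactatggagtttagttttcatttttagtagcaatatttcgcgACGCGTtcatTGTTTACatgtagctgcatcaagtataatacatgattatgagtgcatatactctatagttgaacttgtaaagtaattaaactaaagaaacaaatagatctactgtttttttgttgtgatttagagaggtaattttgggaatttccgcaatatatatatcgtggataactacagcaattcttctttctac
meu13: ACGCGTtgtctccgccACGCGTAAATA
In dmc1 the ACGCGT lies 199 to 194 bp and the Mei4 sequence, in reverse orientation, 189 to 183 bp before the 5′ end. A match of letters is a description and not a measured binding site.

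Each value below is a log2 ratio of ChIP over input signal, centred on the median of its array, so that 0 is the typical nuclear probe. The ChIP signal was well above background at 44.6% to 98.5% of nuclear probes on the 8 arrays, lower for replicate 1 than for replicate 2 in each group, and replicates of a group correlated at r = 0.741 to 0.885 over 37239 probes. The 4 replicate 1 arrays shared 1 slide and the 4 replicate 2 arrays another, so differences were also taken within each slide. None of the measurements at the 38 probes was saturated. The input DNA signal of the 5 genes differed between +N and −N arrays of the same slide by −0.60 to 0.11 on the log2 scale, the lowest being swi5 on slide 2. The study speaks of biological replicates and the labels name no cultures, and p-values measure the spread between these arrays. The ChIP DNA was red on every array by the labels, so a dye effect on the level of an antibody cannot be separated, whereas +N and −N share their dyes.

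All 5 genes carried H3K4Me3 at the 5′ end (250 bp before to 750 bp after it) in both conditions. The H3K4Me3 ratio exceeded the H3 ratio there by 1.98 (dmc1) to 3.32 (mcp7) for +N, and the −N excess ran between 2.25 (sfr1) and 3.13 (mcp7). Each of the 5 differences passed an adjusted p of 0.05 in each condition, with adjusted p of 5.39e-05 or below (limma on all 8 arrays, Benjamini-Hochberg over 4074 genes). Most genes did so, with 92.0% of the 4074 passing in this direction in +N and 90.1% in −N.

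At dmc1 the order of the conditions changed along the transcribed stretch. At its 5′ boundary the H3K4Me3 ratio was higher in +N: 2.58 and 3.19 in +N against 2.40 and 2.10 in −N at −6 bp, and 3.09 and 3.56 in +N against 3.03 and 2.70 in −N at 293 bp. From 502 to 908 bp the order turned round. The probe at 502 bp read 1.32 and 2.86 in +N against 3.03 and 3.16 in −N, that at 694 bp read 0.27 and 1.10 in +N against 2.03 and 1.71 in −N, and that at 908 bp read −0.32 and 1.23 in +N against 1.39 and 2.06 in −N. At each of these 5 probes the +N and −N arrays did not overlap, but the share of all probes without overlap was not counted. Over gene means, 29.5% of genes were without overlap and higher in +N at the 5′ end. From 500 bp after the 5′ end to the 3′ end, 32.3% were without overlap and lower in +N. The 5′ end window of dmc1 takes in probes of both orders. Its mean was 1.81 and 2.68 in +N against 2.63 and 2.42 in −N, with overlapping groups. The 5′ end of dmc1 thus stood above 54.0% of genes in +N and 79.6% in −N. Over 500 bp on each side of the 5′ end, which leaves those later probes out, the difference was 0.54 with +N higher. That window holds only the used probes at −6 and 293 bp given above, so it adds no further measurement.

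**Figure D1:**
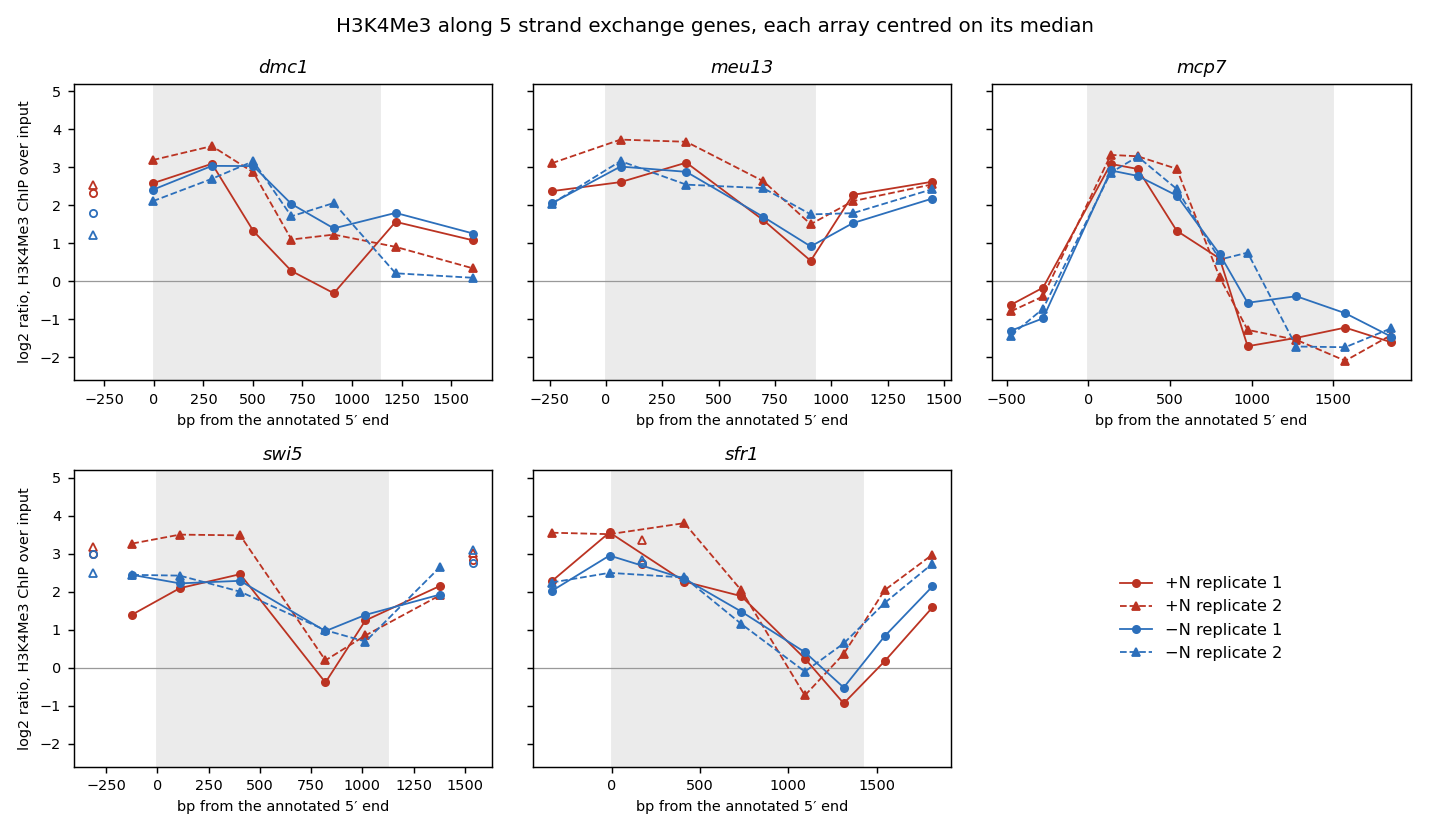
H3K4Me3 along the 5 genes: the distance of each probe's centre from the annotated 5′ end in bp (x axis, grey shading the gene) against the median-centred log2 ratio of H3K4Me3 ChIP over input (y axis), red for +N and blue for −N arrays, circles and solid lines for replicate 1, triangles and dashed lines for replicate 2, and open symbols for outlier-marked probes that were left out. H3K4Me3 is high around the 5′ end of each gene, and at dmc1 the −N arrays stay above the +N arrays from 502 to 908 bp.

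meu13 and mcp7 encode the partners of 1 complex. meu13 read 2.43 and 3.28 in +N and 2.41 and 2.55 in −N at its 5′ end, and mcp7 read 2.45 and 3.19 in +N and 2.65 and 2.85 in −N, each with overlapping groups. The mark stayed high through the short meu13 gene, at 1.07 and 2.06 in +N and 1.30 and 2.10 in −N beyond 500 bp. The input signal was low there, however (−2.86 to −1.98 on the log2 scale against the array median), and the ChIP signal was well above background in 4 of 8 measurements. These means stood above 97.0% of genes in both conditions, a ranking that takes genes of every length. The 2 meu13 probes lie at 699 and 909 bp. Over all genes the −N median fell from 1.16 at 500 to 750 bp to −0.83 at 1250 to 1500 bp. Gene length was not matched. In mcp7 it had dropped by the probe at 804 bp, to 0.59 and 0.10 in +N and 0.71 and 0.57 in −N, and the probe at 975 bp read −1.71 and −1.28 in +N against −0.57 and 0.75 in −N. Upstream of mcp7, the probes at −475 and −278 bp read −0.80 to −0.17 in +N and −1.43 to −0.73 in −N. The +N arrays were higher at both without overlap, an order whose share over all probes was not counted. Downstream of meu13 the probes at 1096 and 1449 bp read 2.11 to 2.62 in +N and 1.53 to 2.42 in −N, around the start of the next gene, SPAC222.18.

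swi5 and sfr1 had the lowest −N means of the 5 at the 5′ end, 2.31 and 2.14. swi5 read 1.99 and 3.42 in +N and 2.32 and 2.30 in −N, so the +N values lay on either side of the −N values. swi5 lies inside mis12, a kinetochore gene on the opposite strand, so its probes report on both. The divergent gene nfu1 starts at −152 bp, and the non-coding SPNCRNA.1414 runs across the swi5 start. Signal at the swi5 probe at −122 bp cannot be assigned to swi5 alone. sfr1 read 2.58 and 3.12 in +N against 2.26 and 2.01 in −N, and was the only member whose H3K4Me3 arrays did not overlap at the 5′ end. The sfr1 probes upstream of its start gave the same order, with 3.57 and 3.52 in +N against 2.96 and 2.50 in −N at −12 bp, and 2.28 and 3.56 in +N against 2.03 and 2.25 in −N at −339 bp, which is also inside the divergent gene mdm12.

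Between the conditions, no member's H3K4Me3 at the 5′ end passed the test. The difference, +N minus −N, was 0.71 ± 0.44 (SE) at sfr1, 0.40 ± 0.45 at swi5, 0.38 ± 0.44 at meu13, 0.07 ± 0.44 at mcp7 and −0.28 ± 0.44 at dmc1, with adjusted p of 0.975 or above in limma on the 4 H3K4Me3 arrays (2 per condition). Of 4074 genes 2 passed, or 0.0491%, both lower in +N, and 169 had an unadjusted p under 0.05. That direction depends on the processing, since of 2 genes that passed both were higher in +N after normexp with loess or with dim probes left out, and 1 was higher and 1 lower after centring on the 10th percentile. With slide as a block 174 genes passed, or 4.27%, of which 144 were higher and 30 lower in +N, none of them a member (sfr1 adjusted p = 0.132). Within slides the sfr1 difference was 0.31 and 1.11, and dmc1 moved in opposite ways, −0.81 on slide 1 and 0.26 on slide 2. The 5 genes had a median difference of 0.38, against a median of 0.25 over all 4074 genes. Both medians rest on the +N arrays: without +N replicate 2 they were −0.30 for the 5 genes, 4 of them below 0, and −0.02 for all genes, and without +N replicate 1 they were 0.80 for the 5 genes and 0.51 for all genes. Quantile normalization gave 0.12 for the 5 genes and 0.05 for all genes. For 1 of 5 members the arrays did not overlap with +N higher, against 29.5% of all genes.

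Over the whole region, the gene plus 500 bp on each side, no H3K4Me3 difference passed either. They were 0.29 ± 0.27 (SE) at meu13, 0.23 ± 0.31 at sfr1, −0.02 ± 0.28 at swi5, −0.14 ± 0.21 at mcp7 and −0.30 ± 0.28 at dmc1. limma called 0 of 4303 genes (0%), with 118 at an unadjusted p under 0.05, and 69 genes (1.6%), no member among them, with slide as a block. The per-array region means at dmc1 were 1.37 and 1.88 in +N and 2.13 and 1.72 in −N. The mcp7 means, 0.11 and 0.21 in +N and 0.31 and 0.30 in −N, were the only ones of the 5 that did not overlap, against 15.7% of all genes with +N lower. The change of H3K4Me3 exceeded the change of H3 by −0.28 at dmc1 to 0.39 at meu13, and the interaction passed at 0 of 4303 genes (0%), with 105 at an unadjusted p under 0.05.

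Arranged by position, the probes of the 5 genes were mostly higher in +N near the 5′ end and mostly lower further in. Of the 8 member probes in the first 500 bp after the 5′ end, 8 were higher in +N, with a median difference of 0.47. Of the 14 probes from there to the 3′ end 11 were lower, and the median over the 14 was −0.37. Over all genes the median difference was 0.42 at 0 to 250 bp and 0.36 at 250 to 500 bp, where 20.1% and 23.3% of probes were lower in +N. At 500 to 750 bp it was 0.08, with 44.5% of probes lower, whereas the 5 member probes there had a median of −0.20, with 3 of 5 lower. Over all genes it was −0.18 at 750 to 1000 bp and −0.29 at 1000 to 1250 bp, where 63.0% and 69.5% of probes were lower. Between 750 and 1000 bp all 5 member probes were lower in +N, with a median of −1.07, the value of the swi5 probe at 820 bp. Its ChIP signal was well above background on 1 of 4 H3K4Me3 arrays. At mcp7 975 bp and meu13 909 bp this held on 2 of 4, and at dmc1 908 bp and mcp7 804 bp on 4 of 4. That comparison of positions was chosen after the values were seen, and its directions depend on the scaling and on single arrays, as given for the gene means at the 5′ end above and in the gene body below.

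**Figure D2:**
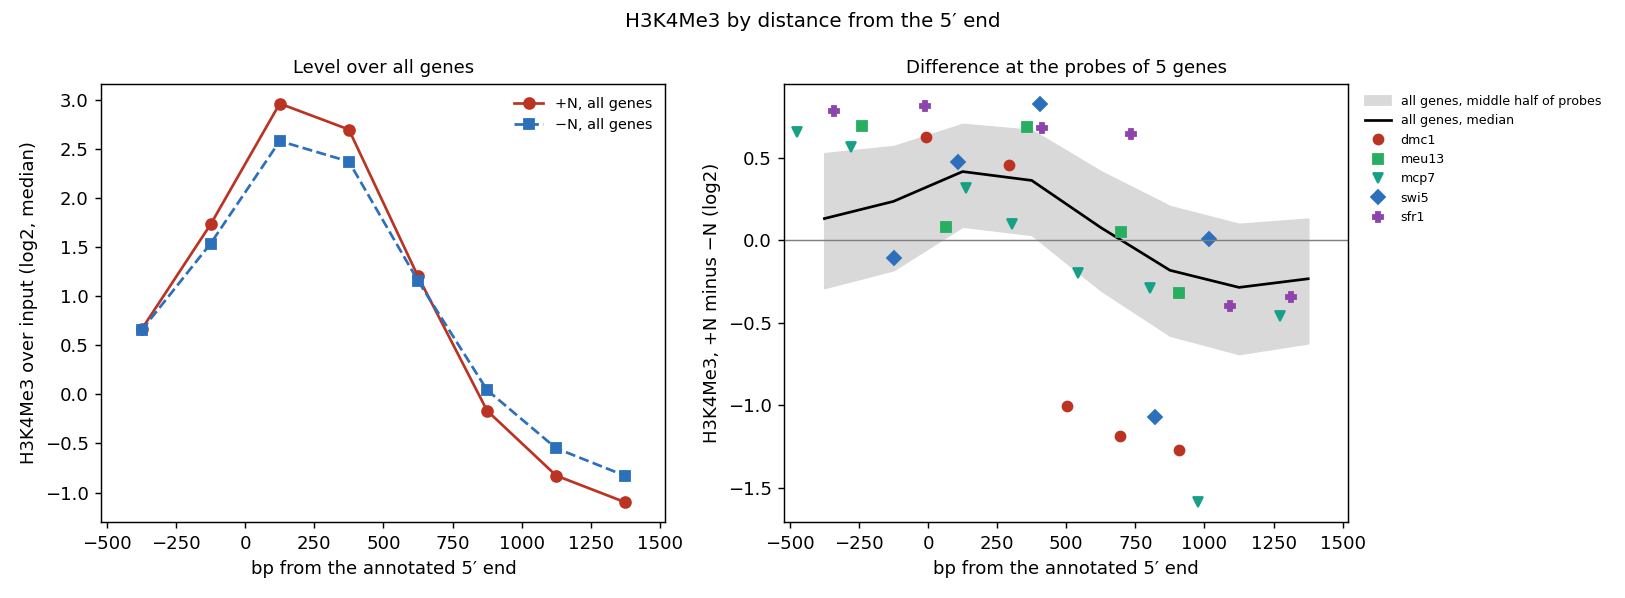
H3K4Me3 by distance from the annotated 5′ end in bp: on the left the median log2 ratio over the probes of all genes in bins of 250 bp, in +N (red) and −N (blue), and on the right the difference, +N minus −N, for all genes (line the median, band the middle 50% of probes) and for each probe of the 5 genes. The median over all genes is 0.42 at 0 to 250 bp and −0.29 at 1000 to 1250 bp. The probes of dmc1 at 502, 694 and 908 bp lie below the band, as do those of mcp7 at 975 bp and swi5 at 820 bp. Probes above the band include those of sfr1 at −339, −12, 412 and 734 bp, swi5 at 404 bp, meu13 at −240 bp and mcp7 at −278 bp.

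dmc1 had the largest H3K4Me3 difference of the 5 in the gene body, taken as the stretch from 500 bp after the 5′ end to the 3′ end. It averaged 1.08 ± 0.92 in +N and 2.23 ± 0.11 in −N (SD, n = 2 each), from 0.42 and 1.73 in +N against 2.15 and 2.31 in −N. The difference was −1.15 ± 0.42 (SE), lower in +N on both slides, by −1.73 and −0.58, and only 19 of the 3512 genes with a value had a lower one. The mean stood above 92.1% of genes in +N and 98.9% in −N, with genes of every length ranked together. mcp7 read −0.32 and 0.06 in +N against 0.50 and 0.51 in −N, a difference of −0.63 ± 0.27, or −0.82 and −0.45 within slides. Its probes at 541 and 804 bp, well above background on 4 of 4 H3K4Me3 arrays, differed by −0.20 and −0.29. Those at 975 and 1273 bp, on 2 of 4, differed by −1.59 and −0.46. swi5 read 0.43 and 0.53 in +N against 1.18 and 0.84 in −N, a difference of −0.53 ± 0.27, or −0.75 and −0.32 within slides. It rests on the probe at 820 bp, which differed by −1.07 and was well above background on 1 of 4 arrays. The other swi5 probe, at 1015 bp and on 4 of 4, differed by 0.01. The groups overlapped in none of dmc1, mcp7 and swi5. For meu13 and sfr1 the groups overlapped, with differences of −0.14 and −0.03.

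In limma on the 4 H3K4Me3 arrays 0 of 3512 genes passed for the gene body (0%), with 323 at an unadjusted p under 0.05, and dmc1 had an adjusted p of 0.476. With slide as a block 171 genes passed (4.87%), 136 of them (3.87%) lower in +N, and dmc1 was the only member among them, at adjusted p = 0.0243, while mcp7 had 0.111 and swi5 0.175. The block fit keeps 1 residual degree of freedom per gene and rests on the spread shared between genes. The size of the dmc1 difference depends on the +N replicate 1 array, without which it was −0.50, and on the background correction, with −0.49 after normexp. In the gene body all 5 members were lower in +N, against 66.5% of 3512 genes, whose median was −0.15, but 3 of 5 were lower after centring on the 10th percentile, after normexp with loess or without replicate 1 of +N or replicate 2 of −N, and 2 of 5 after normexp without loess. The 3 members with no overlap and +N lower compare with 32.3% of all genes. The input signal of the dmc1 gene body also varied, at −0.41 and −0.46 in +N and 0.19 and −0.82 in −N, and the swi5 gene body had 1 low input array, −1.44 in +N replicate 2 against −0.44 to −0.03 on the other H3K4Me3 arrays, and their part in the result was not tested. The ChIP signal was well above background in 11 of 12 dmc1, 12 of 16 mcp7 and 5 of 8 swi5 measurements. With dim probes left out 3 members kept a gene body value, with a median difference of −0.25, against −0.02 over 1662 genes.

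**Figure D3:**
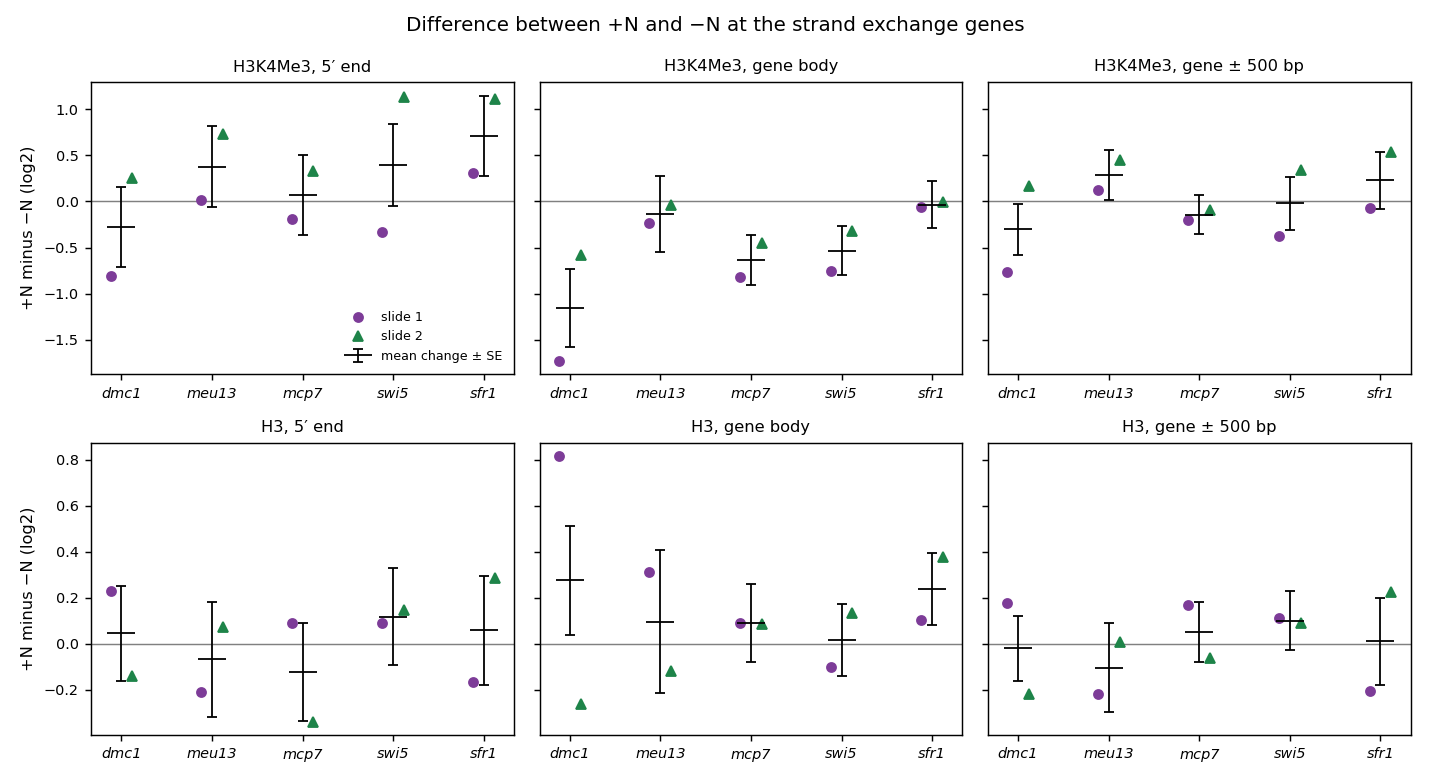
Difference between +N and −N in log2 ratio for each gene, with H3K4Me3 in the top row and H3 in the bottom row, over the 5′ end, the gene body and the gene plus 500 bp, as bars for the mean with its limma SE, purple circles for slide 1 and green triangles for slide 2. The dmc1 gene body has the lowest H3K4Me3 value, −1.15, and the H3 means lie between −0.12 and 0.28.

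No difference in H3 between the conditions passed at the 5 genes. At the 5′ end the difference was −0.12 at mcp7 to 0.12 at swi5, over the region −0.10 at meu13 to 0.10 at swi5, and in the gene body 0.02 at swi5 to 0.28 at dmc1. None passed limma, which called 0 of 4074, 0 of 4303 and 0 of 3512 genes (0% each), with 57, 102 and 109 genes at an unadjusted p under 0.05. In the dmc1 gene body H3 read 0.89 and 0.21 in +N and 0.07 and 0.47 in −N, so that it was higher in +N on slide 1, by 0.82, and lower on slide 2, by −0.26. There the change of H3K4Me3 minus the change of H3 was −1.43 ± 0.57 (SE, limma adjusted p = 0.627), and this interaction passed at 0 of 3512 genes (0%), with 271 at an unadjusted p under 0.05, and with slide as a block at 1 gene, which was none of the 5. Set against H3 within a condition, H3K4Me3 in the dmc1 gene body was higher by 0.53 in +N (adjusted p = 0.281) and by 1.96 in −N (adjusted p = 0.00394). In +N 2 of 5 members passed with H3K4Me3 higher (meu13 and sfr1), against 14.3% of genes, and in −N 4 of 5 (those and dmc1 and mcp7), against 16.5%. Those shares are over genes of every length, whereas the 5 genes are 929 to 1499 bp long, and length was not matched. The +N and −N arrays did not overlap for H3, with +N higher, in the sfr1 gene body (difference 0.24, against 13.4% of genes).

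Over all genes H3 was low in the 250 bp before the 5′ end, with a median of −0.97 in +N and −0.83 in −N, and the members differed there. swi5 read −1.46 and −1.06 in +N and −1.11 and −0.91 in −N at −122 bp, next to the start of the divergent gene nfu1 at −152 bp. sfr1 read −1.19 and −0.17 in +N and −0.33 and −0.46 in −N at −12 bp, and meu13 read −0.62 and −0.21 in +N and −0.38 and −0.22 in −N at −240 bp. dmc1 had no used probe further upstream than −6 bp, where it read −0.71 and 0.14 in +N against 0.13 and 0.29 in −N, so that 3 of 4 arrays were above 0. That probe spans the start itself, and over all genes the median at 0 to 250 bp was −0.42 in +N and −0.41 in −N. The left-out dmc1 probe at −309 bp read −0.59 and 0.13 in +N and −0.25 and −0.35 in −N. H3 upstream of the dmc1 start thus rests on no used probe. The dmc1 5′ end as a whole, at 0.33 and 0.20 in +N and 0.10 and 0.34 in −N, stood above 92.2% of genes in +N and 91.9% in −N. At the other extreme the meu13 gene body read −0.76 and −0.17 in +N and −1.07 and −0.05 in −N, above 5.87% of genes in +N and 3.30% in −N, but only 2 of 4 H3 arrays were well above background at each of its 2 probes.

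**Figure D4:**
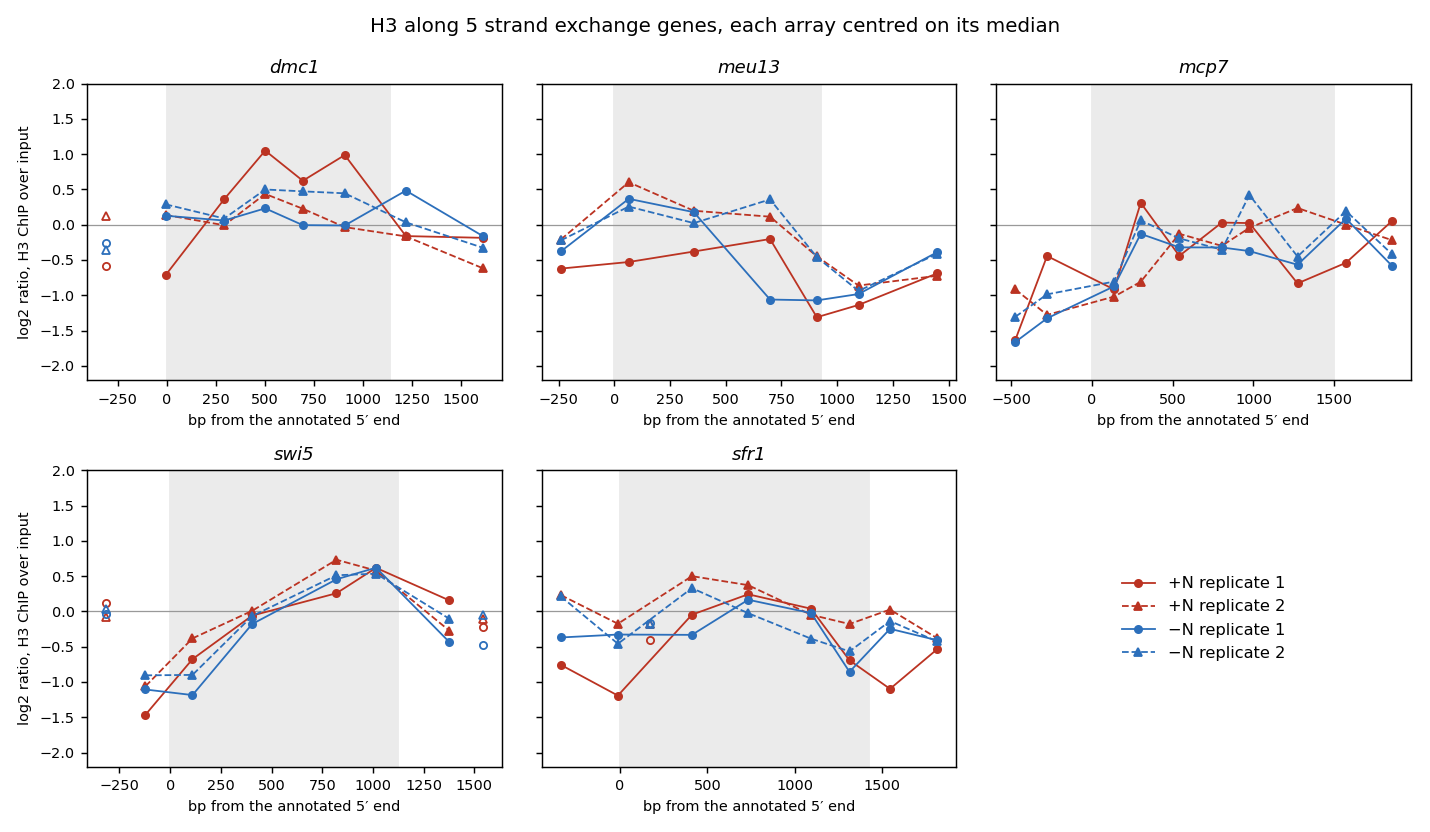
H3 along the same 5 genes, drawn as for H3K4Me3: distance from the annotated 5′ end in bp against the median-centred log2 ratio of H3 ChIP over input, red for +N and blue for −N, with circles for replicate 1 and triangles for replicate 2. swi5 dips to between −1.46 and −0.91 at −122 bp, whereas 3 of the 4 dmc1 arrays stay above 0 at −6 bp. The left-out dmc1 probe at −309 bp reads −0.59 to 0.13.

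Other recombination genes were examined as a list of 23, of which 21 had a region value, 18 a 5′ end value and 20 a gene body value. It holds partners of the strand exchange reaction, single-strand binding proteins, helicases, end resection factors and the Mus81 nuclease. Without a block 0 of them passed in any window for either antibody. With slide as a block 1 of 18 passed at the 5′ end and 1 of 20 in the gene body, against 4.27% and 4.87% of all genes. The first was eme1, the partner of the Mus81 nuclease that cuts joint molecules, with 2.49 and 2.14 in +N against 1.58 and 1.25 in −N at its 5′ end (difference 0.89 ± 0.43 SE, adjusted p = 0.975 without and 0.0414 with the block). The second was ctp1, a cofactor of the Mre11 complex in end resection, with −0.73 and −0.65 in +N against 0.53 and 0.79 in −N in its gene body (difference −1.35 ± 0.26 SE, adjusted p = 0.476 without and 0.00563 with the block). The median H3K4Me3 difference of the list was 0.22 at the 5′ end and −0.23 in the gene body, against 0.25 and −0.15 over all genes. Over the region the largest H3K4Me3 difference upward in all 4 array pairs was 0.49 at rad52, which loads the recombinase, and the largest downward −0.38 at rlp1, a RecA-like gene. rlp1 also had the largest downward H3 difference, −0.56, and none was upward for H3 in all 4 pairs.

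The genes whose 8 region means lay closest to each member, among 4297 non-member genes, were of many kinds. The root mean square distance was smallest for swi5, at 0.0722 from mis12, which shares its probes. sfr1 was 0.0799 from suc1, a cell cycle kinase subunit gene, mcp7 0.0973 from uap56, an mRNA export helicase gene, and meu13 0.119 and 0.129 from the ribosomal protein genes rps7 and rps902. dmc1 had the most distant neighbours, tac1 at 0.187 and rna15, an mRNA cleavage factor gene, at 0.190. The second nearest genes of swi5, sfr1 and mcp7 were ecm31 at 0.103, SPAC4G8.08 at 0.0917 and coq3 at 0.106.

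The annotation places transcripts on the opposite strand of all 5 genes, and the arrays carry no strand information. Long non-coding RNAs overlap dmc1 (SPNCRNA.904), meu13 (SPNCRNA.2429) and mcp7 (SPNCRNA.2243) in antisense, as do mis12 at swi5 and, at the 3′ ends, ubp8 at mcp7 and hrd3 at sfr1. The 5′ end of SPNCRNA.904 lies 1593 bp from that of dmc1, where the nearest used probe, at 1612 bp, read 1.07 and 0.33 in +N and 1.25 and 0.09 in −N. H3K4Me3 from an antisense start and from the gene's own start cannot be told apart in these data.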

How the data were processed

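The authors scanned 8 Agilent 4×44k arrays with Feature Extraction 10.7.3.1 and deposited, for each spot, background-subtracted and linearly dye-normalised red (ChIP) and green (input) intensities. Their deposited table of log2 values was used only to check spot identity. Before labelling, the immunoprecipitated DNA went through amplification by T7 RNA polymerase, a step at which sequences can be copied unequally. A genome build for the probe positions is not given in the sources used here. Positions were checked by correlating probe length with the share of G and C in ASM294v3 at each probe's position, shifted in steps. The negative correlation was strongest without a shift in 43 of 51 segments of 250000 bp, at r = −0.67 to −0.49. In the other 8 it was strongest at a shift of 6140 to 6160 bp. The 43 segments hold all genes described, and the 4365 protein-coding genes of that part were kept.

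Probes marked as outliers on any array (12.7% of 42641) were left out. Log2 of red over green was centred on each array's median and averaged per gene over at least 2 probes. Groups were compared with limma 3.58.1 (lmFit, eBayes, Benjamini-Hochberg, adjusted p under 0.05) in R 4.3.3, which was tested on simulated data. The slide (replicate number) was added as a block: replicate 1 minus replicate 2 correlated between +N and −N over genes at r = 0.459 to 0.627 for H3K4Me3 and 0.139 to 0.190 for H3. Precision is limited by 2 arrays per group. Other centrings, background corrections (normexp, offset 50, on median signals), filters, windows and left-out arrays were tried.

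Of the 6 strand exchange genes, 1 is not reported here. The members and gene lists were chosen with earlier results of these data known. Named genes are the members, listed recombination genes past the threshold with or without the block or with the largest regional difference in each direction shared by all 4 array pairs, the 2 genes nearest each member over the 8 arrays, and neighbours within 500 bp. The gene body window and the position bins were added after the values were seen.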

Additional observations from a re-analysis of the deposited data

Results flagged for a closer look

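The 4 probes of these genes left out as outlier-marked spots carried H3K4Me3 signal above the H3 signal on every array, and the means of the 4 H3K4Me3 and the 4 H3 arrays differed by 2.24 at dmc1 (−309 bp from the 5′ end), 3.16 at sfr1 (172 bp), 2.91 at swi5 (−315 bp) and 3.15 at swi5 (1541 bp). At dmc1 the left-out probe read 2.32 and 2.53 in +N against 1.80 and 1.22 in −N. Groups of 2 arrays are too small for a search for single outlying arrays.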

How the results depend on the processing

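The numbers of genes past the threshold were 0 in most settings and moved as follows. With the slide (replicate) block they were 69 for H3K4Me3 and 1 for H3 over the region, 174 and 2 at the 5′ end and 171 for H3K4Me3 in the gene body, where no block gave 0, 0, 2, 0 and 0. For the change of H3K4Me3 minus that of H3 the block gave 7 genes at the 5′ end and 1 in the gene body, where no block gave 0. Leaving out dim probes gave 3 for H3K4Me3 over the region and 5 in the gene body, and fitting all 8 arrays together gave 0 at the 5′ end and 5 in the gene body. H3 over the region gave 1 with quantile normalization, 10th percentile centring and the median over probes. H3K4Me3 at the 5′ end gave 0 with quantile normalization, no centring, normexp without loess and the median over probes, and 1 with the 500 bp window. Leaving out 1 array at a time gave 0 to 1 genes for H3 over the region, 0 to 4 and 0 to 2 for H3K4Me3 and H3 at the 5′ end, and 0 to 1 and 0 to 53 in the gene body, the 53 without H3 +N replicate 2. The cause was not tested. Differences changed sign with the processing in 46 of 528 values of the named genes under other settings, among them H3K4Me3 differences of −0.53 at the swi5 gene body and −0.28 at the dmc1 5′ end, and the cause was not tested. The 528 take in the slide block and the fit of all 8 arrays, which leave the difference itself unchanged and so cannot change its sign. They also take in the H3K4Me3 excess over H3 at the 5′ end. H3K4Me3 over the region, +N minus −N, took the other sign with 10th percentile centring mcp7 0.0825, swi5 0.20, with normexp and loess mcp7 0.0824, swi5 0.29, with dim probes left out mcp7 0.0979, swi5 0.19, with no flank swi5 0.0597, with normexp swi5 0.29, with outlier spots kept swi5 0.0511 and with the median over probes swi5 0.0238. H3 over the region, +N minus −N, took the other sign with 10th percentile centring dmc1 0.15, meu13 0.0614, with normexp dmc1 0.0213, with normexp and loess dmc1 0.10, with dim probes left out dmc1 0.0873, with the median over probes dmc1 0.00340, sfr1 −0.0167, with no flank dmc1 0.0873, with a 250 bp flank dmc1 0.00239, mcp7 −0.0129, with no centring sfr1 −0.0209 and with outlier spots kept sfr1 −0.0206. H3K4Me3 at the 5′ end, +N minus −N, took the other sign with normexp dmc1 0.23, with normexp and loess dmc1 0.0305, with dim probes left out dmc1 0.0276, with the 500 bp window dmc1 0.54, with quantile normalization mcp7 −0.22 and with no centring mcp7 −0.0108. H3 at the 5′ end, +N minus −N, took the other sign with the 500 bp window dmc1 −0.20, mcp7 0.0403, sfr1 −0.0824, with quantile normalization meu13 0.00271, with 10th percentile centring meu13 0.0975, mcp7 0.0425, with normexp and loess meu13 0.00487 and with outlier spots kept sfr1 −0.00310. H3K4Me3 in the gene body, +N minus −N, took the other sign with 10th percentile centring meu13 0.0902, sfr1 0.19, with normexp meu13 0.53, swi5 0.0202, sfr1 0.0543 and with normexp and loess meu13 0.63, sfr1 0.13. H3 in the gene body, +N minus −N, took the other sign with normexp meu13 −0.29, with quantile normalization swi5 −0.00506 and with no centring swi5 −0.0151. Leaving out 1 array at a time changed a sign within these ranges. H3K4Me3 over the region gave −0.0115 to 0.58 at meu13, −0.37 to 0.33 at swi5, −0.18 to 0.64 at sfr1. H3 over the region gave −0.16 to 0.12 at dmc1, −0.36 to 0.15 at meu13, −0.0601 to 0.16 at mcp7, −0.26 to 0.28 at sfr1. H3K4Me3 at the 5′ end gave −0.71 to 0.15 at dmc1, −0.0529 to 0.80 at meu13, −0.30 to 0.44 at mcp7, −0.32 to 1.12 at swi5. H3 at the 5′ end gave −0.0728 to 0.16 at dmc1, −0.37 to 0.24 at meu13, −0.28 to 0.0275 at mcp7, −0.00972 to 0.25 at swi5, −0.22 to 0.34 at sfr1. H3K4Me3 in the gene body gave −0.63 to 0.36 at meu13, −0.11 to 0.0478 at sfr1. H3 in the gene body gave −0.0625 to 0.61 at dmc1, −0.41 to 0.60 at meu13, −0.0375 to 0.21 at mcp7, −0.0930 to 0.12 at swi5. The difference at the dmc1 gene body stayed below 0 under every setting run (−1.81 to −0.47), with adjusted p of 0.0243 to 0.999. The gene body was a window chosen after seeing the data. With dim probes left out the swi5 and meu13 gene bodies had no value for H3K4Me3, and the meu13 gene body had none for H3. Centring on the 10th percentile moved the median H3K4Me3 difference of all genes over the region to 0.24, against 0.01 at the median centring. The H3K4Me3 excess over H3 at the 5′ end kept its sign and side of the threshold at the 5 genes in all settings. The number of arrays limits the precision throughout.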
